A study of Homo sapiens with 6 samples.

Results

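DU145 is an established human prostate cancer cell line derived from a metastasis, grown here as the control of a CRISPR/Cas9 experiment. These cells, called scramble (Scr) in the labels, received Cas9 with a scrambled guide RNA that has no specific target, and the methods of the study describe the control cells as clones selected by GFP sorting. Whether both libraries came from the same clone is not stated. The description that follows covers the RNA levels of these control cells alone. The Scr group comprised 2 of the 6 RNA-Seq libraries of the series, and the other libraries came from CD24 KO and RCC2 KO derivatives of the same line, in which clones were expanded after a targeted disruption of the surface glycoprotein gene CD24 or of RCC2, a regulator of chromosome condensation. All 3 groups therefore share the DU145 background and the editing procedure, and levels were not compared between them; the other columns are used only for counts of genes at 0 or at 1 FPKM and more. Members were the genes of the deposited expression table, taken from the Scr column and ranked by their value, which gave 27381 genes in the Scr column and the same 27381 in the series as a whole.

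Values are given as FPKM, fragments counted for a transcript and scaled by its length and by the size of the library. This scaling is meant to let genes of different length be set side by side. The table held a single FPKM per gene for the Scr group, with both libraries already joined by the authors. The values therefore carry no replicate error, no statistical test was possible, and differences are given as sizes only. The depth of the libraries is unknown from these values. A gene listed at 0 was not necessarily silent, and an FPKM does not report whether an RNA is mutated or translated.

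A transcriptome of this kind reflects which lineage a cell still resembles. In the normal prostate, luminal cells make simple keratins and androgen-induced genes such as KLK3, which encodes prostate-specific antigen, while basal cells make KRT5, KRT14 and the transcription factor p63. Castration-resistant cell lines can retain an epithelial character while lacking the androgen program. Wnt signaling, the pathway linked to CD24 and RCC2 in this study, works through secreted ligands that bind Frizzled and LRP receptors, which stops a cytoplasmic complex of APC, AXIN and GSK3 from marking β-catenin for degradation.

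Across the table, the median level was 0.353 FPKM, and 12144 of 27381 genes, or 44.4%, reached 1 FPKM, the level used below as the minimum for calling a gene expressed. Among the 19048 protein-coding symbols, the median was 3.24 FPKM and 11365 genes, or 59.7%, reached this minimum. Counts for lists of protein-coding genes below are to be read against this 59.7%. Levels of at least 10 FPKM were found for 6597 genes and levels of at least 100 FPKM for 754. The RNA was concentrated in few genes, since the highest 100 rows held 28.7% of the FPKM sum of all rows and 596 genes held 50% of it. Short RNAs were hardly represented, as 1799 of 1800 microRNA rows and 502 of 516 small nucleolar RNA rows were listed at 0. The methods of the study name a kit for messenger RNA. How far other RNAs were captured was not tested, so their low values cannot be read as absence from the cells. Of 3925 long noncoding RNA rows, 422 reached 1 FPKM.

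The highest rows of the table were RNAs without a protein product. RNR2, the large ribosomal RNA of the mitochondrion, stood at 26884 FPKM and alone made up 5.96% of the sum, and RNR1, its small-subunit counterpart, stood at 4687 FPKM. Of the mitochondrial genome, only these 2 genes had rows, so mitochondrial messenger RNAs were not analysed here. SNORD141A, a small nucleolar RNA gene, was listed at 8025 FPKM between them. RMRP, the RNA of a nuclease that processes ribosomal RNA, reached 1256 FPKM, followed by the small nucleolar RNA SNORA40 at 842 FPKM, the annexin pseudogene ANXA2P2 at 601 FPKM, the host gene SNHG6 at 478 FPKM and RNA28S4 at 406 FPKM. The small nucleolar RNAs SNORA22 and SNORA14B, at 331 and 292 FPKM, completed the 10 highest rows of this kind. Since 502 of 516 small nucleolar RNA rows were listed at 0, these few high values are uncertain measures of abundance.

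Among protein-coding genes, the highest 25 were dominated by protein synthesis, glycolysis and the cytoskeleton. GAPDH, a glycolytic dehydrogenase, led at 2723 FPKM, closely followed by FTL, the light chain of the iron store ferritin, at 2714 FPKM. Ribosomal protein genes took 11 of these 25 places, from RPS25 at 2531 FPKM, RPL11 at 2212 FPKM and RPS24 at 2197 FPKM to RPLP2 at 1119.7 FPKM. Also within this group were RPS29, RPL30, RPL27, RPL35A, RPL38, RPL8 and RPL37A, between 2014 and 1250.0 FPKM. RPL36AL, a ribosomal protein paralog outside the list, stood at 1376 FPKM. Glycolysis supplied 4 of the 25 genes, with ENO1 at 1738 FPKM, PKM at 1502 FPKM and ALDOA at 1305 FPKM beside GAPDH.

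The cytoskeleton was represented by the actin monomer-binding TMSB10 at 2189 FPKM and the cytoplasmic actins ACTG1 at 2036 FPKM and ACTB at 1394 FPKM. Chaperones were represented by HSPA8 at 1764 FPKM and HSP90AB1 at 1093 FPKM. The remaining places belonged to the metal-binding metallothionein MT2A at 1553 FPKM, the class I antigen light chain B2M at 1286 FPKM and the ribosome-associated scaffold RACK1 at 1118 FPKM. As shown in the plot of level against rank, most genes of glycolysis and most ribosomal protein genes lay to the left of the regulators discussed below, and all 20 proliferation genes lay among the highest 2738 rows of the table.

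**Figure D1:**
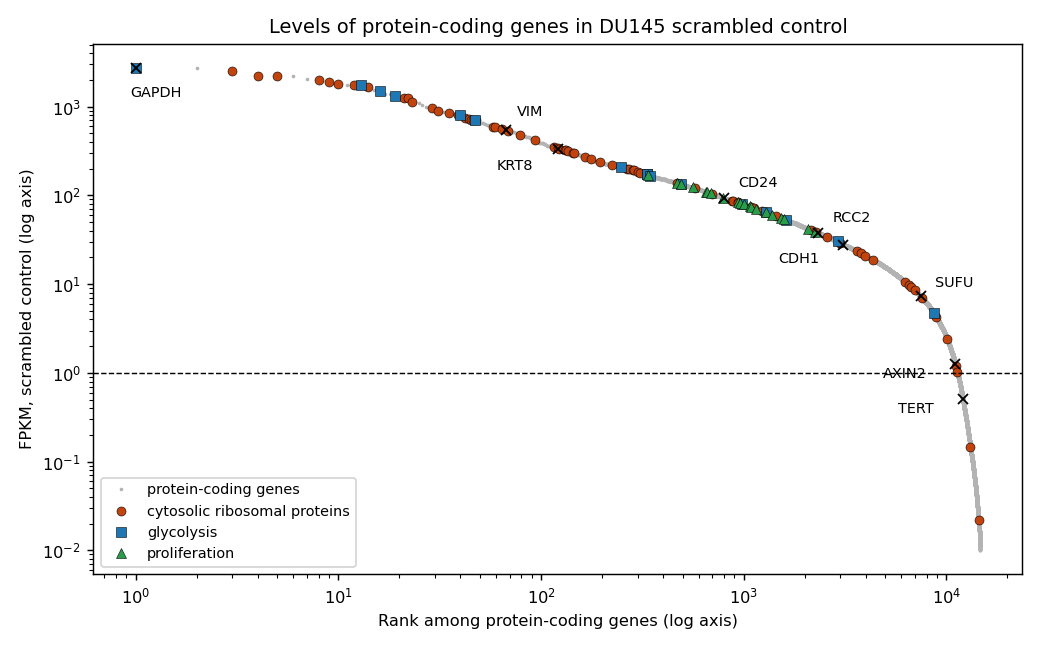
FPKM of protein-coding genes in the Scr column against their rank, both axes logarithmic; each grey point is 1 gene of at least 0.01 FPKM, coloured symbols mark 3 gene lists and crosses mark named genes, and the dashed line is 1 FPKM. GAPDH is at the top at 2723 FPKM, and VIM and KRT8 lie in the upper part at 540.0 and 336 FPKM. CD24 and RCC2 lie below these at 93.2 and 37.8 FPKM, well above the dashed line. AXIN2 lies near that line at 1.27 FPKM.

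The promoters of 9 abundant messenger RNAs, and of RCC2 as a gene of the study, are shown to illustrate sequence features that the ranking did not use; they were chosen after their sequences were seen, and not all of them hold these features. Of the 19048 protein-coding symbols, 14577 matched a RefSeq promoter and 10713 of these had a single start, with 250 bases before and 50 bases after it in GRCh38.p14. Ribosomal protein genes typically start their RNA with a C followed by a run of C and T, known as a TOP motif, which links translation to nutrient supply. A TATA box, searched here as TATAA on the gene strand within 40 bases before the start, positions the start of transcription at a subset of promoters. The bases from 60 before to 10 after the start follow for these 10 genes, in lower case, with TATAA and the first 5 bases of a TOP start in capitals.
RPS25 (chr11:119018334-119018403, minus strand): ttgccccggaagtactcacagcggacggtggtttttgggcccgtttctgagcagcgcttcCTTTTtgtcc
RPS24 (chr10:78033803-78033872, plus strand): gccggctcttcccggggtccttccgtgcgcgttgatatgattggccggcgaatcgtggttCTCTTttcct
RPL35A (chr3:197950130-197950199, plus strand): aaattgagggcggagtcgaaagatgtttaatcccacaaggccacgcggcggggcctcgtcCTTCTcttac
EEF2 (chr19:3985454-3985523, minus strand): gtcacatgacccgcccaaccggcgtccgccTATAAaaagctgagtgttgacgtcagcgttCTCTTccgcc
FTL (chr19:48965249-48965318, plus strand): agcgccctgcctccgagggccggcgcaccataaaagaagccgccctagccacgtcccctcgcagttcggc
ACTG1 (chr17:81512790-81512859, minus strand): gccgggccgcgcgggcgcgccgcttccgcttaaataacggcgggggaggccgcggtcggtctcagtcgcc
TMSB10 (chr2:84905596-84905665, plus strand): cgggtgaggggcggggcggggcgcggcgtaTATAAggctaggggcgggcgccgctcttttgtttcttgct
B2M (chr15:44711457-44711526, plus strand): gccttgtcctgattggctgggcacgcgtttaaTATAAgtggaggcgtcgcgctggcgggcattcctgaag
HSPA8 (chr11:123062127-123062196, minus strand): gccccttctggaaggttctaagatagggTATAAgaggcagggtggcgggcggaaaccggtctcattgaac
RCC2 (chr1:17438527-17438596, minus strand): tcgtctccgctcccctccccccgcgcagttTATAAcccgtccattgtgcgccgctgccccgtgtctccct

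The 3 ribosomal protein promoters and that of EEF2, the elongation factor that moves the ribosome along the RNA, show the TOP start, and EEF2 carries TATAA 30 bases before the start as well. TMSB10 and RCC2 hold TATAA at 30 bases, HSPA8 at 32 bases and B2M at 28 bases before the start. FTL and ACTG1, at 2714 and 2036 FPKM among the highest genes, show neither feature by this search. Over all single-start promoters, a TOP start was present in 4.67% and TATAA in the upstream window in 6.62%. In the ribosomal protein genes, 41 of 53 promoters, or 77.4%, showed a TOP start. Among the 392 genes of at least 100 FPKM the share with a TOP start was 17.6%, and it was 11.9% in the 360 of them that were not ribosomal protein genes, against 3.41% of the 2552 genes listed at 0.

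TATAA was found most often at both ends of the range. It was present in the upstream window of 15.3% of promoters of genes listed at 0, of 7.9% of those above 0 and under 1 FPKM, of 2.35% of those from 1 to 10 FPKM and of 2.28% of those from 10 to 100 FPKM. The share was 9.69% at 100 FPKM or more, and 5 of the 20 promoters of genes of at least 1000 FPKM held it. Searched on both strands over the whole 300 bases, the same letters were found in 17.2% of all promoters. The content of CpG, the dinucleotide that is enriched in the promoters of broadly used genes, followed the level more simply. The median ratio of observed to expected CpG was 0.27 in genes listed at 0, 0.59 in those above 0 and under 1 FPKM, 0.85 from 1 to 10 FPKM, 0.88 from 10 to 100 FPKM and 0.90 at 100 FPKM or more. A match of letters describes the sequence and is not evidence of a bound factor.

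CD24, RCC2 and VIM, the genes at the center of the study, were all well above the minimum. CD24, a small glycosylated surface protein that serves as a marker of tumor cells, stood at 93.2 FPKM and rank 821. Its row was placed on chromosome Y, from position 21034387 to 21438350, a locus that it shared with the noncoding TTTY14 at 0.439 FPKM. The files do not name their genome build, so this position is given as the table states it. RCC2 stood at 37.8 FPKM and rank 2381, so that CD24 was 2.46-fold higher than RCC2 on the FPKM scale. How reads that match CD24 at several places were counted was not tested, so its level, its rank and this fold are uncertain. VIM, the intermediate filament protein vimentin, was far above both at 540.0 FPKM and rank 73. SIGLEC10, a receptor for CD24 on leukocytes, was listed at 0.

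DU145 cells held the RNAs of an epithelial cell. Of 24 epithelial junction genes, 22 reached 1 FPKM, with a median of 20.5 FPKM against 3.24 FPKM over protein-coding genes. CTNNA1, which links cadherins to actin, was highest at 176 FPKM, and the desmosomal genes JUP, DSG2 and DSP stood at 89.0, 88.8 and 64.8 FPKM. EPCAM, an epithelial adhesion molecule, reached 58.9 FPKM, CLDN1 of the tight junction 65.2 FPKM, and CDH1, which encodes E-cadherin, 27.9 FPKM. The exceptions were transcription factors that maintain the epithelial state, with OVOL1 at 0.0314 FPKM and GRHL2 listed at 0. The splicing factors ESRP1 and ESRP2, which are specific to epithelia, passed at 2.68 and 5.94 FPKM. These levels lie on either side of the protein-coding median of 3.24 FPKM.

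The keratins divided sharply by type. The simple keratins KRT8, KRT7 and KRT18 stood at 336, 320.4 and 293 FPKM and KRT19 at 83.5 FPKM, whereas the intestinal KRT20 was listed at 0. Of 12 keratins of basal and stratified epithelia, only KRT10 reached the minimum, at 3.83 FPKM, and 8 were listed at 0. These 8 included KRT5, KRT14, KRT17, KRT13 and KRT6A, and KRT15 lay just under the minimum at 0.947 FPKM.

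Of the prostate luminal program, the secretory genes were listed at or near 0. KLK2 and KLK3, which encode secreted kallikreins, were listed at 0, as were the luminal MSMB, the surface enzyme FOLH1, the noncoding PCA3 and the prostate homeobox factor HOXB13. TMPRSS2 stood at 0.0437 FPKM, the phosphatase ACPP at 0.110 FPKM and the luminal factor SPDEF at 0.502 FPKM. In all, 11 of 24 luminal genes, or 45.8%, reached the minimum, against 44.4% of all genes and 59.7% of protein-coding genes. FKBP5, a co-chaperone induced by several steroid receptors, was highest at 67.6 FPKM. The pioneer factor FOXA1 stood at 25.4 FPKM and the surface protein gene STEAP1 at 15.7 FPKM. The glucocorticoid receptor gene NR3C1 reached 34.5 FPKM, the highest of 48 nuclear receptors, of which 24 or 50% passed the minimum.

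The prostate basal list gave a mixed picture. Of its 13 genes, 10 reached the minimum, led by CAV1, the coat protein of caveolae, at 205 FPKM, and by the laminin-332 subunits LAMB3 at 59.7 FPKM and LAMA3 at 16.9 FPKM, with the surface markers ITGA6 and CD44 at 42.8 and 33.9 FPKM. TP63, which defines basal identity, and the keratins KRT5 and KRT14 were the 3 genes listed at 0. The lowest members to pass were COL17A1, a hemidesmosomal collagen, at 1.90 FPKM and the neurotrophin receptor gene NGFR at 1.6 FPKM.

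Neuroendocrine genes, which mark a treatment-resistant form of the disease, were mostly low. Only 4 of 18 reached the minimum, with PEG10 at 46.8 FPKM, ENO2 at 23.8 FPKM, SYP at 1.72 FPKM and DLL3 at 1.20 FPKM. CHGA stood at 0.0243 FPKM and NCAM1 at 0.0246 FPKM, and the regulators INSM1, NEUROD1 and MYCN were listed at 0. PEG10 and ENO2 are not restricted to neuroendocrine cells.

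Mesenchymal genes were present in part, beside the epithelial genes. The 22 genes had a median of 0.258 FPKM and 10 of them, or 45.5%, reached the minimum, against 59.7% of protein-coding genes. VIM at 540.0 FPKM was 19.3-fold above CDH1, and the secreted matrix protein TGFBI stood at 139.7 FPKM. Of the transcription factors that repress epithelial genes, ZEB1 reached 10.8 FPKM, SNAI1 8.65 FPKM, TWIST2 3.37 FPKM and SNAI2 1.47 FPKM, whereas ZEB2 stood at 0.0448 FPKM and TWIST1 was listed at 0. FN1, which encodes fibronectin, was at 3.62 FPKM. CDH2, which encodes N-cadherin, was listed at 0 together with SPARC, MMP2, FAP and CDH11. P-cadherin, encoded by CDH3 at 45.1 FPKM, was the highest of 6 classical cadherins and lay 1.62-fold above CDH1.

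**Figure D2:**
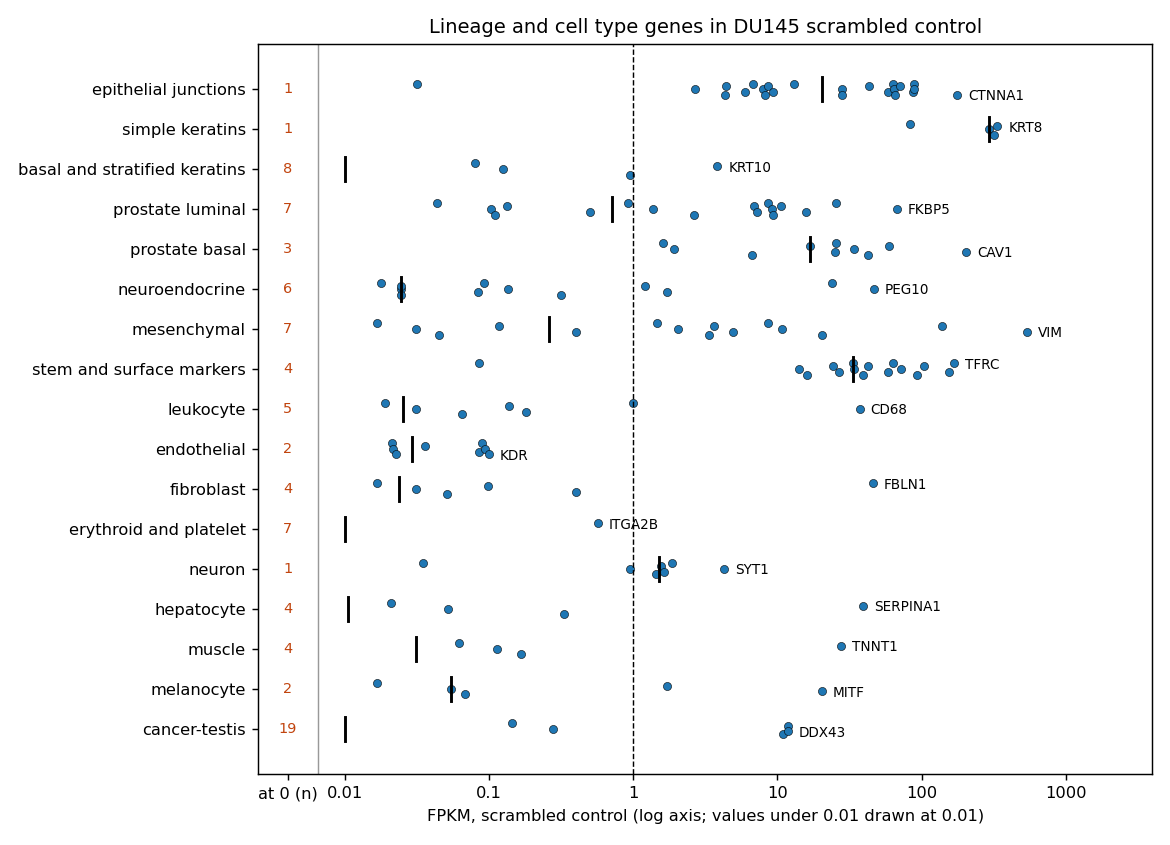
FPKM of the genes of 17 lineage and cell type lists in the Scr column on a logarithmic axis; each point is 1 gene, the vertical bar is the list's median, the number at the left counts genes listed at 0, the dashed line is 1 FPKM and the highest gene is named. Epithelial junction genes and simple keratins lie mostly to the right of the line, while 8 of 12 basal and stratified keratins and 19 of 24 cancer-testis genes are listed at 0.

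Markers of cell types that a culture of DU145 cells should not hold served as a check on the label. None of 10 endothelial genes reached 1 FPKM, the highest being KDR at 0.0994 FPKM, and none of 8 erythroid and platelet genes did, with HBA1, HBA2 and HBB listed at 0. The leukocyte list gave 1 of 12 genes, CD68 at 37.1 FPKM, a lysosomal protein that is not restricted to macrophages, while PTPRC, CD3E and CD4 were listed at 0. Among 10 fibroblast genes only FBLN1, at 45.7 FPKM, passed, and DCN and LUM were listed at 0. Thus, the defining genes of these 4 cell types were at or near 0.

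Of the other lineages, the hepatocyte and muscle lists were each represented by an isolated gene. SERPINA1, the secreted protease inhibitor antitrypsin, was the only 1 of 8 hepatocyte genes to pass, at 39.2 FPKM, and ALB stood at 0.0209 FPKM. TNNT1, a slow skeletal troponin, was the only 1 of 8 muscle genes, at 27.8 FPKM, with the muscle regulator MYOD1 listed at 0. MITF, the regulator of pigment cells, stood at 20.4 FPKM and PMEL at 1.71 FPKM, but the remaining 5 of 7 melanocyte genes, including TYR and SOX10, did not pass. The neuron list passed in 5 of 8 genes, or 62.5%, against 59.7% of protein-coding genes. None of these exceeded SYT1 at 4.28 FPKM. Of 17 factors that specify other tissues, 5 passed, led by NKX2-1 of lung and thyroid at 22.2 FPKM, whereas CDX2, SOX2 and WT1 were listed at 0.

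Position along the body axis is recorded by HOX genes, and 20 of 39, or 51.3%, passed the minimum, against 59.7% of protein-coding genes. HOXB7 and HOXC10 were highest at 18.4 and 17.5 FPKM, followed by HOXA10 at 8.37 FPKM. Of the most posterior group, HOXC13 stood at 4.75 FPKM and HOXA13 at 1.34 FPKM, while HOXB13 and HOXD13 were listed at 0.

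Surface and stem cell markers were largely present. Of 20 such genes, 15 exceeded the minimum and each of these lay above 10 FPKM. The transferrin receptor gene TFRC was highest at 169 FPKM, followed by the tetraspanins CD9 and CD151 at 155 and 104 FPKM and then by CD24 at 93.2 FPKM. CD47, which restrains phagocytosis, was lowest of the 15 at 14 FPKM. ALDH1A3 stood at 33.2 FPKM, whereas the related ALDH1A1 was listed at 0, as were PROM1, LGR5 and THY1. Of 10 pluripotency genes, only MYC at 77.6 FPKM, ZFP42 at 4.41 FPKM and KLF4 at 4.28 FPKM passed, and NANOG, SOX2 and LIN28A were listed at 0. Of 24 cancer-testis genes, normally restricted to germ cells, DDX43 and BRDT, both at 11.8 FPKM, and PRAME at 10.9 FPKM passed. The MAGEA genes were listed at 0, although near-identical copies make the values of such families uncertain.

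The Wnt pathway showed most of its intracellular machinery and few of its ligands. Of 19 ligands, 2 reached the minimum, WNT7B at 9.68 FPKM and WNT3 at 2.35 FPKM, and 5 were listed at 0. WNT5B, WNT5A and WNT10B lay under the minimum at 0.766, 0.682 and 0.478 FPKM, and the canonical ligands WNT1 and WNT3A stood at 0.0214 and 0.0196 FPKM. The count of ligands depended on the minimum, as described in the closing section.

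Among 18 receptors and co-receptors, 12 or 66.7% passed, against 59.7% of protein-coding genes. RYK, a receptor-like kinase that binds Wnt proteins, was highest at 57.3 FPKM, and FZD6 was the highest Frizzled gene at 48.9 FPKM, with the next, FZD1, at 4.04 FPKM. The co-receptor genes LRP5 and LRP6 stood at 29.1 and 12.3 FPKM. LGR4, a receptor for the R-spondins that sustain Wnt signaling, reached 23.1 FPKM, while its relatives LGR5 and LGR6 were listed at 0 and at 0.235 FPKM.

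Of 20 cytoplasmic and nuclear components, 18 passed, with a median of 15.5 FPKM. CTNNB1, which encodes β-catenin, stood at 63.1 FPKM. The kinases that mark β-catenin for degradation were at similar or higher levels, with CSNK1A1 at 93.9 FPKM and GSK3A at 66.5 FPKM, and GSK3B lay lower at 15.8 FPKM. The scaffolds of the complex were lower, with APC at 11.7 FPKM and AXIN1 at 11 FPKM. AXIN2, a negative regulator that is itself a target of the pathway, was at 1.27 FPKM, 49.7-fold below CTNNB1. Of the DNA-binding partners, TCF7L2 led at 24.7 FPKM, ahead of TCF7 at 9.35 FPKM and TCF7L1 at 3.12 FPKM, and LEF1 was under the minimum at 0.427 FPKM. The coactivators BCL9L and PYGO2 stood at 49.0 and 31.6 FPKM.

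Antagonists passed in 6 of 16 cases, or 37.5%, and were led by a single gene. DKK1, a secreted inhibitor that binds LRP5 and LRP6, reached 103 FPKM, 10.5-fold above the next, the intracellular antagonist NKD2 at 9.78 FPKM. The ligases ZNRF3 and RNF43, which remove Frizzled proteins from the surface, were at 3.16 and 2.55 FPKM. The SFRP genes, which encode secreted decoys for Wnt ligands, were low, with SFRP1 at 0.329 FPKM, SFRP4 at 0.0640 FPKM, and SFRP2 and SFRP5 listed at 0.

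**Figure D3:**
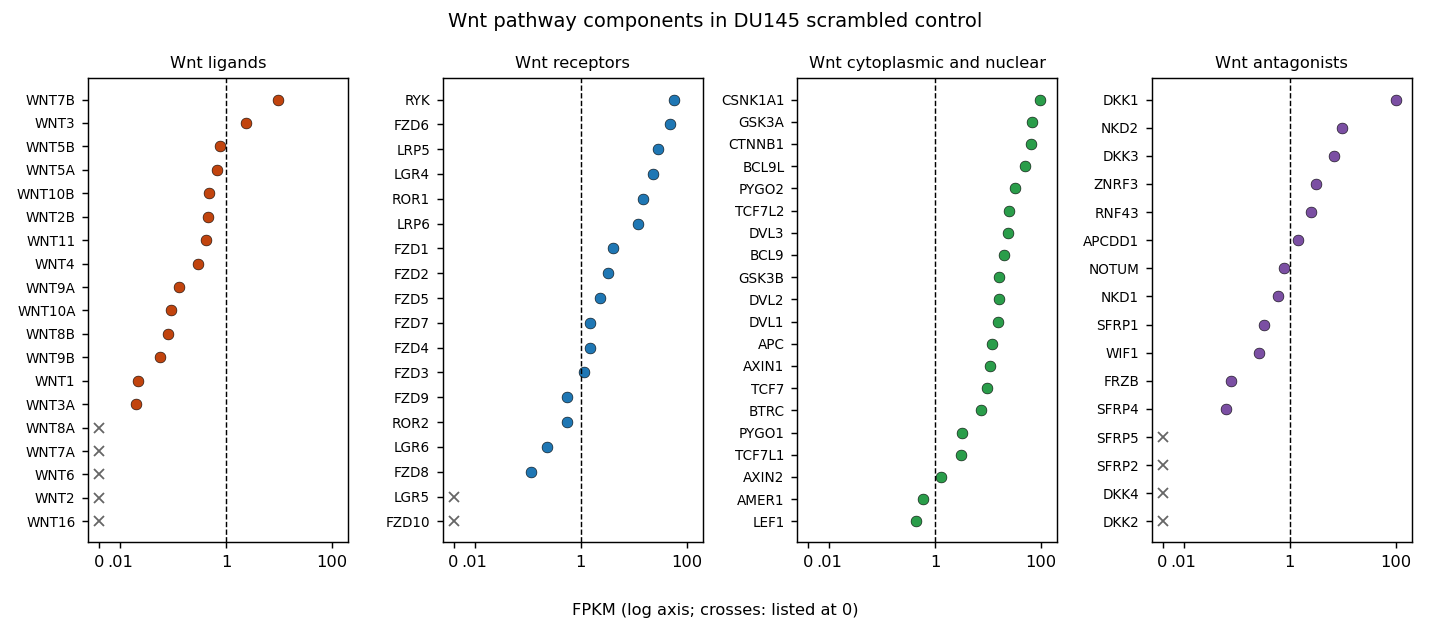
FPKM of 73 Wnt pathway genes in the Scr column, arranged by role in 4 panels, each on a logarithmic axis with the dashed line at 1 FPKM; each point is 1 gene and crosses mark genes listed at 0. Ligands lie mostly to the left of the line with WNT7B highest at 9.68 FPKM, 18 of 20 cytoplasmic and nuclear genes lie to the right, and DKK1 stands apart among antagonists at 103 FPKM.

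Hedgehog, Notch and TGF-β are further developmental pathways, in which 50%, 66.7% and 73.3% of the listed genes passed, against 59.7% of protein-coding genes. For Hedgehog, 7 of 14 genes passed, none above SUFU at 7.30 FPKM, with the receptor genes SMO and PTCH1 at 5.71 and 3.98 FPKM, the target GLI1 at 1.33 FPKM and the ligand SHH at 0.332 FPKM. For Notch, 10 of 15 passed, led by the DNA-binding partner RBPJ at 23.6 FPKM and by NOTCH3 at 12.1 FPKM. In the TGF-β and BMP list, 22 of 30 genes passed, among them the target ID3 at 81.2 FPKM, the ligand TGFB1 and the receptor TGFBR2 both at 39.7 FPKM, and the signal transducers SMAD3 and SMAD4 at 38.2 and 10.5 FPKM.

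The list of ARF and RB pathway genes, to which CD24 has been linked, was present in 24 of 26 genes with a median of 15.7 FPKM. NPM1, a nucleolar protein that binds ARF, was highest at 488 FPKM, and CDKN2A, whose locus encodes both ARF and p16, stood at 81.4 FPKM. The table held a single CDKN2A row, so that these products could not be told apart. The ubiquitin ligase gene MDM2, whose product is bound by ARF, was at 14.6 FPKM. RB1 stood at 16.4 FPKM, slightly below its relative RBL2 at 19.9 FPKM. CCND1 was the leading D cyclin at 154 FPKM, and CDK4 at 41.5 FPKM lay 25.9-fold above CDK6 at 1.61 FPKM. CDKN1A, an inhibitor of cyclin-dependent kinases, stood at 31.9 FPKM.

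The genes of DNA replication and mitosis were uniformly high. All 20 proliferation genes passed, with a median of 80.8 FPKM, from TOP2A at 172 FPKM to MCM2 at 39.0 FPKM. Of 7 telomerase genes, 5 passed. The catalytic and RNA components lay under the minimum, with TERT at 0.514 FPKM and TERC at 0.727 FPKM, while the accessory genes NOP10 and DKC1 stood at 342 and 108 FPKM. TERC is not a messenger RNA, so its low value cannot be read as absence. All 20 genes of the list of small GTPases, Ran regulators and the chromosomal passenger complex, to which RCC2 belongs, exceeded 10 FPKM. RHOA was highest at 375 FPKM, and ARF6 and RAC1, small GTPases of cell migration, stood at 148 and 133 FPKM. RCC1, the Ran exchange factor related to RCC2, was at 40.3 FPKM, close to the 37.8 FPKM of RCC2, and the passenger complex genes AURKB, BIRC5, CDCA8 and INCENP ranged from 60.7 to 25.1 FPKM.

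Receptor tyrosine kinases carry the signals of growth factors into the cell. Of 58 such genes, 24 or 41.4% passed, against 44.4% of all genes and 59.7% of protein-coding genes. AXL led at 153 FPKM, 2.39-fold above EPHA2 at 64.0 FPKM, and EGFR, MET and ERBB2 stood at 48.7, 43.4 and 27.7 FPKM. Of the receptors typical of stromal and vascular cells, FLT4 passed at 3.03 FPKM, whereas KDR stood at 0.0994 FPKM, PDGFRA at 0.0513 FPKM, PDGFRB at 0.0976 FPKM and FLT1 at 0.00635 FPKM. Of 11 genes of the EGF ligand family, which includes the neuregulins, 7 or 63.6% passed. EREG stood at 69.9 FPKM, HBEGF at 33.5 FPKM and TGFA at 13 FPKM, while EGF itself stood at 0.455 FPKM. Downstream, 25 of 26 genes of the MAPK and PI3K pathways passed, with MAPK3 at 109 FPKM, MAP2K2 at 77.1 FPKM and AKT1 at 42.7 FPKM. PIK3CG, the leukocyte isoform, was listed at 0.

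Of 20 genes recurrently altered in prostate cancer, 17 passed. AURKA and MYC were highest at 84.0 and 77.6 FPKM, and ETV5 and ETV4 stood at 23.3 and 12.9 FPKM, whereas ERG and ETV1, further ETS factors that are fused in prostate tumors, were listed at 0. SPINK1 was at 0.119 FPKM. Of 18 DNA methylation and Polycomb genes, 15 passed, led by DNMT1 at 77.1 FPKM, SUZ12 at 50.6 FPKM, BMI1 at 36.1 FPKM and EZH2 at 34.8 FPKM.

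The adhesion and invasion genes were led by a few members. ITGB1, the shared β subunit of many matrix receptors, stood at 818 FPKM, and ITGA3, which pairs with it to bind laminin, at 194 FPKM. Of 26 integrins, 13 or 50% passed, against 59.7% of protein-coding genes. Of 23 proteases and inhibitors, 12 or 52.2% passed. PLAU, the urokinase plasminogen activator, stood at 242 FPKM and its receptor PLAUR at 45.9 FPKM. The cathepsins CTSB, CTSL and CTSD stood at 223, 174 and 160.0 FPKM. The secreted collagenases and gelatinases were low, with MMP1 at 0.0645 FPKM, MMP9 at 0.0511 FPKM and MMP2 listed at 0, whereas the membrane-bound MMP15 and MMP14 reached 13.3 and 8.80 FPKM. TIMP2 and TIMP1, inhibitors of these enzymes, were at 159 and 108 FPKM.

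Of 31 secreted immune factors, 19 or 61.3% passed, against 59.7% of protein-coding genes. CXCL8, which attracts neutrophils, led at 141 FPKM, followed by IL18 at 64.3 FPKM, the angiogenic VEGFA at 64.1 FPKM and CSF1 at 62.7 FPKM, and IL6 stood at 11.9 FPKM. Of 19 nucleic acid sensors and their adaptors, 12 or 63.2% passed. The DNA sensor gene MB21D1 stood at 21.0 FPKM and its adaptor TMEM173 at 12.8 FPKM, and TLR4, TLR7 and TLR8 were listed at 0. Of 23 apoptosis genes, 19 passed, and the survival genes MCL1 and BCL2L1 stood at 147 and 85.5 FPKM, with BCL2 at 0.317 FPKM, 463-fold below MCL1. Of 7 drug efflux pumps, 6 passed, led by ABCC3 at 35.1 FPKM, while ABCB1 was at 0.0861 FPKM.

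The housekeeping lists completed the account. All 25 reference genes passed, from GAPDH to TBP at 9.58 FPKM. All 16 translation factors and all 16 glycolysis genes passed, with medians of 199 and 173 FPKM. Of 17 proteasome genes, 15 passed, and the exceptions, the immunoproteasome subunits PSMB9 and PSMB8 at 0.133 and 0.0500 FPKM, lie in the chromosome 6 region described below. Of 17 listed long noncoding RNAs with rows, 10 or 58.8% passed, against 10.8% of all long noncoding RNA rows. The list was chosen from RNAs known in tumors, so the shares are not alike. Those that passed included RPPH1 at 165 FPKM, SNHG1 at 129.8 FPKM, NEAT1 at 60.9 FPKM and MALAT1 at 49.5 FPKM. The prostate cancer transcripts PCAT1 and SCHLAP1 were listed at 0.

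Gene families differed in how far a single member supplied the RNA. Of 36 families, the highest member held at least 80% of the family's FPKM sum in 16 and at least 90% in 13, and the median share was 77%. Without rows that share their locus with another row, 12 families in place of 16 had a leader of at least 80%. VIM made up 99.5% of the type III filament family, with the next member, PRPH, at 1.55 FPKM. Among glycolytic isozymes, PKM at 1502 FPKM stood beside PKLR at 0.158 FPKM, ENO1 held 98.3% and ALDOA 99.9% of their families, HK1 held 94.1% of the hexokinase sum and PFKP 74.5% of the phosphofructokinase sum. MYC held 96.9% of the MYC family, CDK4 96.3% of its pair, DKK1 93.6% of the dickkopf family and AXL 91.5% of the TAM receptors.

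In 13 families the highest member held under 60%. LDHB and LDHA, the subunits of lactate dehydrogenase, were nearly level at 799 and 710.4 FPKM, and ACTG1 exceeded ACTB by 1.46-fold. RBL2 and RB1 differed by 1.21-fold, and EGFR led ERBB2 by 1.76-fold. EEF1A2, an elongation factor isoform normally restricted to nerve and muscle, stood at 152 FPKM, 1.21-fold above the ubiquitous EEF1A1 at 126 FPKM. Without a replicate error, the order within such close pairs cannot be judged. For related sequences such as EEF1A1 and EEF1A2, how reads that match several places were counted was also not tested.

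**Figure D4:**
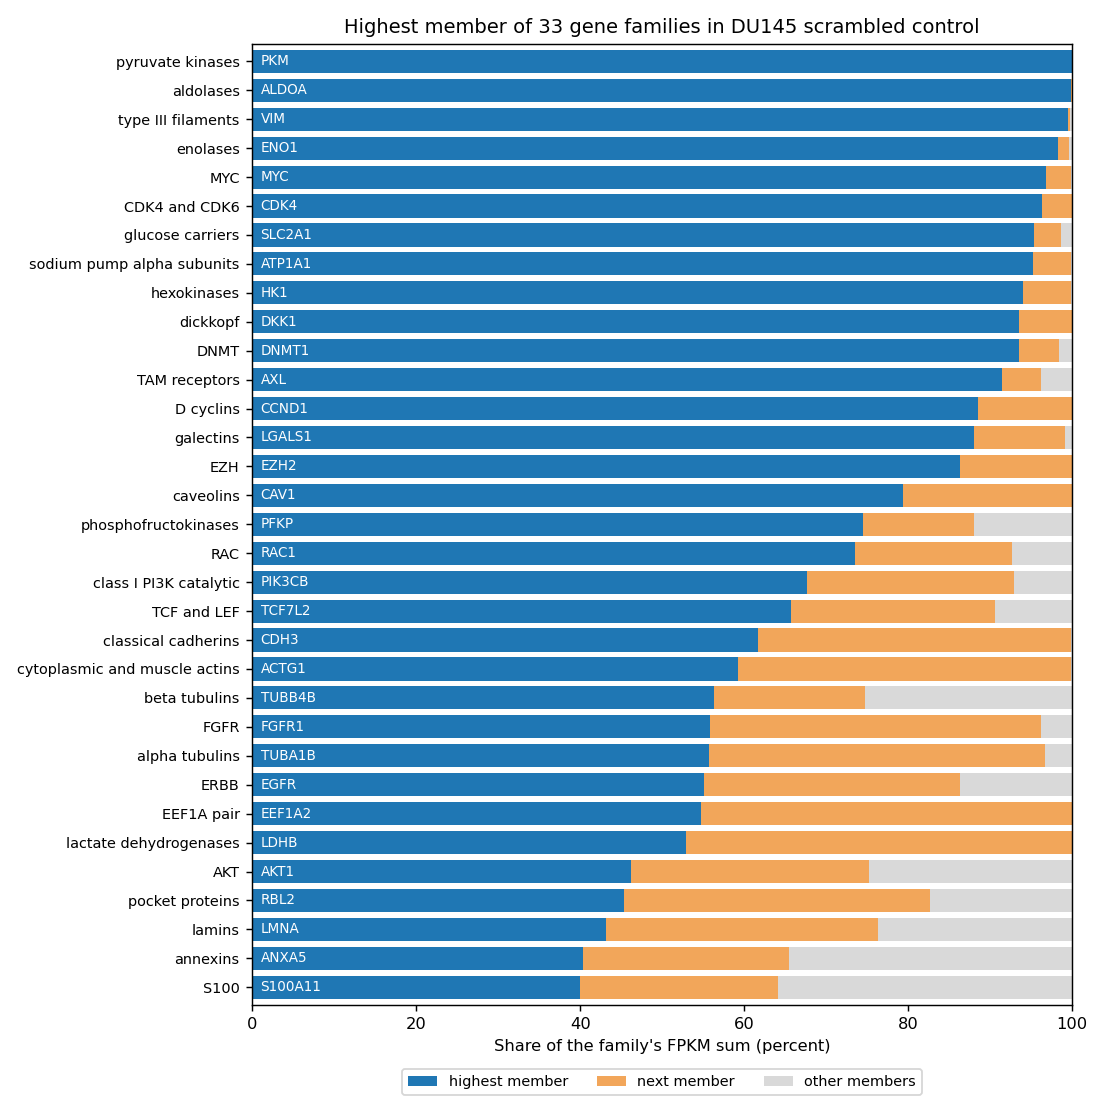
Share of each family's FPKM sum, in percent on a linear axis from 0, held by its highest member (named in the bar), the next member and all others, for 33 of the 36 families in the Scr column. Bars run from PKM and ALDOA, which hold nearly the whole sum, to S100A11, which holds 40% of the sum of 17 S100 genes.

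Values of genes with close copies need separate attention. The 79 cytosolic ribosomal protein genes encode parts of a single particle, yet their levels differed widely. Their median was 196 FPKM and their quartiles were 36.5 and 653 FPKM. The lowest level above 0 was that of RPL21 at 0.0218 FPKM, 115922-fold below RPS25. That fold rests on a value far under the minimum. RPS28 and RPS18 were listed at 0. In total, 75 of them reached 1 FPKM and 12 lay under 10 FPKM. As a description, Spearman's rank correlation across the 79 genes between the level and the number of pseudogenes named for each gene in GENCODE 29 was -0.39; these genes share both libraries and are not independent. The median was 329 FPKM in 32 genes with 0 to 5 pseudogenes, 182 FPKM in 32 with 6 to 20 and 41.0 FPKM in 15 with over 20. Members under 10 FPKM numbered 2, 6 and 4 in these classes. The 2 in the class with 0 to 5 pseudogenes were RPS28 and RPS18. How the counting treated reads that match several places was not tested.

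The reverse also occurred, with pseudogenes above their parents. Of 415 pseudogene rows whose parent gene also had a row, 89 reached 1 FPKM and 22 of these exceeded the parent. ANXA2P2 at 601 FPKM exceeded ANXA2 at 145 FPKM, RPSAP58 at 360.4 FPKM exceeded RPSA at 34.3 FPKM, and PDIA3P1 at 168 FPKM exceeded PDIA3 at 54.0 FPKM. H3F3A, which encodes a histone variant, stood at 0.00184 FPKM, beside its pseudogene H3F3AP4 at 6.76 FPKM and its paralog H3F3B at 126 FPKM. RPL36A at 1.03 FPKM and RPL36AL at 1376 FPKM form a similar pair. Low values of such genes are therefore uncertain.

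A stretch of chromosome 6 that holds the major histocompatibility complex (MHC) stood apart from the rest of the table. It was delimited after the values were seen, from GABBR1 to KIFC1, at positions 29570005 to 33377699 of the table's coordinates. Of its 144 protein-coding genes, 92 or 63.9% were listed at 0 and 19 or 13.2% reached 1 FPKM, whereas 22.8% of the 850 other protein-coding genes of chromosome 6 were listed at 0 and 60.5% reached 1 FPKM. Genes used by nearly every cell were among the zeros, including RPS18 of the ribosome, the tRNA synthetase VARS, the splicing factor LSM2, the chaperone subunit PFDN6, CLIC1, CUTA and ABCF1. These 7 genes were listed at 0 in the CD24 KO and RCC2 KO columns too. The table also held 2 rows on alternative haplotype sequences of chromosome 6, both at 0; their part in the low values was not tested.

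**Figure D5:**
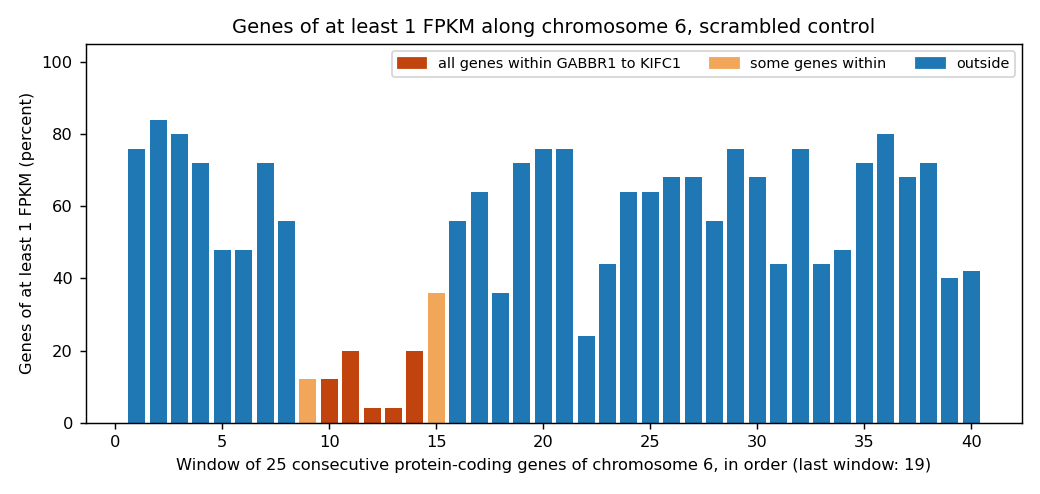
Percent of protein-coding genes of at least 1 FPKM in the Scr column, in consecutive windows of 25 genes along chromosome 6 in gene order (19 in the last), on a linear axis from 0; red windows lie wholly between GABBR1 and KIFC1, orange ones partly and blue ones outside. The 5 red windows lie between 4% and 20%, below every blue window, the lowest of which is at 24%.

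This stretch limits the reading of antigen presentation in DU145 cells. In the MHC and checkpoint list, 12 of 24 genes, or 50%, passed, and 5 of these 12 lie outside the stretch. B2M, which is encoded on chromosome 15, stood at 1286 FPKM, while the heavy chains HLA-C and HLA-B stood at 80.8 and 30.8 FPKM and HLA-E was listed at 0. TAP1, which carries peptides to class I molecules, was at 0.509 FPKM, and TAPBP at 0.228 FPKM. Outside the stretch, the checkpoint ligands CD276 and CD274 stood at 31.7 and 5.94 FPKM, the poliovirus receptor PVR at 40.9 FPKM, and PDCD1LG2 and VTCN1 were listed at 0. The zeros of TNF, NOTCH4, POU5F1, RXRB and RING1 in the lists above fall in the same stretch and cannot be read as absence.

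Across the table, 10232 genes, or 37.4%, were listed at 0 in the Scr column, 4264 of them protein-coding. Of these 10232, 85.5% were at 0 in all 3 columns, and 3, RNU6ATAC, SCARNA16 and SNORA57, all small noncoding RNAs, were at 0 in the Scr column and at 1 FPKM or more in both other columns. Of the 12144 genes of at least 1 FPKM in the Scr column, 95.4% were at this level in all 3 columns. The zeros of KLK3, TP63 and KRT5 lie outside the chromosome 6 stretch. So does the 0 of the ribosomal protein gene RPS28, and position alone therefore does not make a 0 a sign of absence.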

How the data were processed

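RNA of DU145 cells was extracted with Trizol and made into libraries with an Illumina TruSeq kit per the labels, with 2 libraries for each of 3 groups. What the authors deposited is 1 table of FPKM values, a single value per gene and group, so both libraries of a group were already combined; how they were combined, and the genome build, are not given in the sources used here. The submitters' processing notes name HISAT, StringTie, Cufflinks and GATK, without versions. Labels and methods differ on whether the kit preserved strand, so overlapping genes on opposite strands are uncertain; 10096 of 27381 rows share their locus with another row. The other columns served only to count genes at 0, or of at least 1 FPKM, in the Scr column that were so in the other columns as well.

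From the Scr column alone, genes were ranked, and those of at least 1 FPKM were counted in each of 52 gene lists and 36 families. Lists and families, and the choice of the Scr column, were made with earlier results of these data known. Named genes were the 25 highest protein-coding and 10 highest other genes, the 2 to 4 highest members of a list, members listed at 0 or under the minimum that define a lineage or step, the leading and next family members, and the study's genes; the genes with pseudogenes or in the chromosome 6 stretch were chosen after their values were seen. Biotypes were taken from RefSeq symbols and synonyms, with 974 symbols unmatched. Promoters came from RefSeq (GRCh38.p14), and pseudogene numbers from GENCODE 29. Counting, family and promoter functions were checked on simulated data. Python 3.11.15, NumPy 2.4.6, pandas 2.3.3 and matplotlib 3.10.9 were used. No test was run, since each gene had 1 value per group. Some genes of the lists count towards the totals and are not reported here by name.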

Additional observations from a re-analysis of the deposited data

How the results depend on the processing

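Alternatives were a minimum of 0.5 or 2 FPKM, rescaling all values to the sum used for TPM (a factor of 2.22), the same without mitochondrial rows and RNAs without a protein (a factor of 2.5), protein-coding symbols only, removal of rows that share a locus and, chosen after seeing the data, removal of the chromosome 6 stretch. The number of genes of at least 1 FPKM, 12144, ranged from 10908 to 13517. Of 277 alternative values, 258 were counted as unchanged, which meant within 1.5 times the reported one. The exception was GC content in place of CpG in promoters, which had only to keep its direction. Of 52 lists, 43 stayed within 1.5 times under every alternative run. Lists without a gene in the chromosome 6 stretch could not change when it was removed, and both rescalings act like a lower minimum. The basal and stratified keratins (reported: 1) and the leukocyte genes (reported: 1) gave 2 at a minimum of 0.5 FPKM and under both rescalings, and the erythroid and platelet genes gave 1 in place of 0 under the same 3. The Wnt ligands gave 4 at a minimum of 0.5 FPKM, 5 after the first rescaling and 7 after rescaling without mitochondrial and noncoding rows, against 2. The fibroblast genes gave 2 under the last rescaling. At a minimum of 2 FPKM the neuroendocrine genes gave 2, the neuron genes 1 and the melanocyte genes 1. Without the chromosome 6 stretch, the MHC and checkpoint list gave 5. Ribosomal protein genes among the 100 highest rows fell from 26 to 16 without rows that share a locus, and the genes listed at 0 numbered 4264 among protein-coding symbols. No paired analysis was possible because the table gives 1 value per group and no value per library; leaving out each replicate was not run for the same reason, and the library depth is unknown.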
